A study of Mus musculus with 199 samples.

Results

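The genes described here encode 41 plasma proteins that hepatocytes make and secrete, among them albumin, apolipoproteins, fibrinogen chains, plasma protease inhibitors and acute phase proteins. They were chosen by symbol from a table of 31581 mouse genes, all 41 symbols were in the table, and the rule uses no measured value. They were followed in KP1, a line explanted from a mouse small cell lung cancer of genotype Rb1-/-Trp53-/-, grown either as spheroids or as tumour colonies in the livers of host mice. The hosts were nude mice, which lack mature T cells and are the immunocompromised hosts, or F1 mice, the immunocompetent ones; the labels give neither strain, age nor number of animals. Groups of 10 cells were cut by laser from 8 µm frozen sections, and each KP1 group also has pool-and-split controls, made from pooled captured material divided again to the size of a capture. There were 28 spheroid 10-cell and 20 spheroid pool libraries, 33 nude liver 10-cell and 35 nude liver pool libraries, and 31 F1 liver 10-cell and 24 F1 liver pool libraries. The other libraries of the series are used only for reference: 24 10-cell libraries of RPC spheroids, pre-cancerous cells of genotype Rb1-/-Trp53-/-p130-/+Crebbp-/-, and 1 bulk spheroid library each of KP1 (Rb1-/-Trp53-/-), KP2 (Rb1-/-Trp53-/-Ptch1+/lacz), KP3 (Rb1-/-Trp53-/-Axin2+/lacz) and KP5 (Rb1-/-Trp53-/- BAT-GAL). KP1 is a single tumour line, and nothing in the labels ties a library to an animal, a culture or a pool. P-values therefore measure only the spread between libraries, which may be partly technical.

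Hepatocytes release most of the protein of blood plasma through the secretory pathway: carriers of hormones, vitamins, haem and iron, the apolipoproteins of lipoprotein particles, clotting factors, and inhibitors that keep plasma proteases in check. The genes are held active by liver-enriched transcription factors of the HNF1, HNF4, FOXA and C/EBP families, and inflammatory cytokines raise the acute phase members through C/EBP and STAT3. Small cell lung cancer is a neuroendocrine tumour that spreads readily to the liver, where tumour cells come to lie against hepatocytes. Rbp4, which carries retinol, and Serpinc1, antithrombin, are members with transcripts outside the liver as well.

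Several members are neighbours in the genome. Of the 41 genes, 23 lie in 8 clusters of members within 500 kb of each other, among them the apolipoprotein cluster Apoa1, Apoc3, Apoa4 and Apoa5 on chromosome 9 (chr9:46228580-46271919, 43.3 kb, GRCm38). Others are the fibrinogen genes Fgg, Fga and Fgb on chromosome 3 and the fetuin cluster Ahsg, Fetub, Hrg and Kng1 on chromosome 16. Serpina1a, Serpina1b and Serpina1c, copies of the alpha-1-antitrypsin gene on chromosome 12, can share reads, as can the serum amyloid genes Saa1 and Saa2, so the split of reads between copies is uncertain. Another 8 members overlap a protein-coding gene at their locus, Serpinc1 with Zbtb37 and Trf with Gm20425 among them, and the sources used here do not say whether counting used strand.

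The 250 bases before the transcription start are shown for the genes on which the comparisons below turn, from RefSeq on GRCm38.p6: Alb, the member with the highest median in nude liver captures, Pigr, which was lower in F1 than in nude liver in captures and pools, and C3 and Hpx, which were lower in captures and in pools respectively. They lie at chr5:90460620-90460869 (plus strand) for Alb, chr7:105600117-105600366 (minus strand) for Hpx, chr17:57228137-57228386 (minus strand) for C3 and chr1:130826434-130826683 (plus strand) for Pigr, each just upstream of the gene's first exon. Capitals mark matches, on either strand, to the HNF1 motif GTTAAT or the C/EBP motif TTGCNNAA.
Alb: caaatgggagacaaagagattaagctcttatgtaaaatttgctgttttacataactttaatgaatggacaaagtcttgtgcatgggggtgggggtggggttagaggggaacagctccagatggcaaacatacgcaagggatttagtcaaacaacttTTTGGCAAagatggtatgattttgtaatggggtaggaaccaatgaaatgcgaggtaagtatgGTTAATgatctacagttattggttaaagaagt
Hpx: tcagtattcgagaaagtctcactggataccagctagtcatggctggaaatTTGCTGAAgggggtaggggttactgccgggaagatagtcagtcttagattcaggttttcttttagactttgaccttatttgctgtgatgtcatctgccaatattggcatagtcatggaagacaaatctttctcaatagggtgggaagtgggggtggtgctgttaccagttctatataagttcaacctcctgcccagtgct
C3: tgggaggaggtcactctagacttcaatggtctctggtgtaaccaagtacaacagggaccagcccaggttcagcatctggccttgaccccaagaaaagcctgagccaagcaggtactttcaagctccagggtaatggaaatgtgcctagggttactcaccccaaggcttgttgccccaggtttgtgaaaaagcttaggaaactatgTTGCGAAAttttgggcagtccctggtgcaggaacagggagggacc
Pigr: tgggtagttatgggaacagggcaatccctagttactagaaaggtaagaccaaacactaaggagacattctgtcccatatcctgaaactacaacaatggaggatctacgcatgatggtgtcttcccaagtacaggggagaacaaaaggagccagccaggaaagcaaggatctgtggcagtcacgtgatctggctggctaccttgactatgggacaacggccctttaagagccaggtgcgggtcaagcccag
The Alb window held 1 match to each motif, those of Hpx and C3 held 1 C/EBP match each, and that of Pigr held neither. The promoters of the 3 Serpina1 copies are shown over 120 bases, to let the copies be compared; they lie on the minus strand at chr12:103863620-103863739, chr12:103738190-103738309 and chr12:103904951-103905070.
Serpina1a: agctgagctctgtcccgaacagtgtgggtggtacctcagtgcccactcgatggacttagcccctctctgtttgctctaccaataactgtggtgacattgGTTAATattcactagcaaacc
Serpina1b: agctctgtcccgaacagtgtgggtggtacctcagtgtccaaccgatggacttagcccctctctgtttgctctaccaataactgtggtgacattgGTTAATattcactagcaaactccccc
Serpina1c: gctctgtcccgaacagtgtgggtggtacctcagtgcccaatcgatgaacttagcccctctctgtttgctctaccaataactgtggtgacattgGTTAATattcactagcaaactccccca
Over 250 bases these promoters were 88.1% (Serpina1a and Serpina1b), 91.4% (Serpina1a and Serpina1c) and 90.9% (Serpina1b and Serpina1c) identical, and those of Saa1 and Saa2 were 94.8% identical. For scale, the Alb and Serpina1b promoters aligned at 51.2% identity. Promoter sequences were matched for 32 of the 41 members (36 entries). The HNF1 motif was in 8 of these 36 entries (22.2%) against 6.43% of all 32851 promoter entries, and the C/EBP motif was in 13 (36.1%) against 9.56%. The FOXA motif TGTTTAC was in 4 entries (11.1%) against 3.17%, and the TATA box TATAAA was in 7 (19.4%) against 12.4%. These are matches of letters on either strand and describe the windows, not binding.

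Libraries differed in depth and in the share of ERCC spike-in transcripts, RNAs added in fixed amount. Gene counts per library ran from 3662447 to 5830589 in spheroids, from 718208 to 4239792 in nude liver and from 1646395 to 5432858 in F1 liver. The ERCC share had medians of 0.00465% in spheroid captures, 0.969% in nude captures, 5.94% in nude pools, 2.16% in F1 captures and 13.2% in F1 pools, and 17 of the 24 F1 pool libraries held at least 10% ERCC counts against 1 of 33 nude captures, 3 of 35 nude pools and 1 of 31 F1 captures. Levels are given as CPM, each gene's counts scaled to a common total of gene counts in every library, with ERCC counts left out. The neuroendocrine tumour markers were present in every liver and spheroid group, with median summed levels from 2008 to 3590 CPM, so each liver library group held tumour transcripts beside those described here. In a library of several cells, fewer cells of a type and less RNA per cell cannot be told apart. No pair of liver or spheroid libraries within a group was close to a duplicate: the lowest chi-square per degree of freedom between any pair was 61.7.

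In spheroids few of the plasma protein genes were found. Of the 41 members, 27 had no count in any of the 48 spheroid libraries, and a spheroid library held between 1 and 6 members. The summed level of the members was 6.22 to 334 CPM in spheroid captures (median 87.8) and 16.7 to 551 CPM in spheroid pools (median 167). Most of this was Rbp4, the retinol carrier, which was found in 28 of 28 captures (lowest 5.42, median 75.7, highest 309 CPM) and in 20 of 20 pools (lowest 15.8, median 165, highest 550 CPM). The bulk libraries, of which there is 1 per line, held Rbp4 at 102 CPM in KP1 and 101 CPM in KP3, but at 8.55 CPM in KP2 and 8.99 CPM in KP5; RPC captures held it in 13 of 24 libraries with a mean of 4.41 CPM.

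The other members were found in fewer spheroid captures, with medians of 0 apart from Serpinc1. Serpinc1, the thrombin inhibitor antithrombin, had counts in 22 of 28 captures at a median of 0.447 CPM (highest 24.3), which is close to what 1 or 2 counts are worth at this depth, and it overlaps Zbtb37. Apoa2, an HDL protein, was found in 12 captures (highest 28.8 CPM), Ttr, the thyroxine carrier transthyretin, in 8 (highest 83.2 CPM) and Trf, the iron carrier transferrin, in 7 (highest 63.1 CPM). Pigr was in 4 captures at up to 1.76 CPM and Saa2 in 2 at up to 104 CPM, and Hpx, Hp, F2 and Saa1 were in 1 each. Alb had no count in any spheroid capture and 1.06 CPM in 1 spheroid pool library.

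In nude liver captures the family was present almost as a whole. The 33 libraries held 8 to 38 members each (median 29); 27 libraries held at least 20 members, 15 held at least 30, and 3 held fewer than 10. The summed level ran from 131 to 9240 CPM with a median of 1596 CPM, or 0.160% of gene counts in the median library and 0.924% in the highest. All members but Plg, plasminogen, had counts in this group, and Plg was found in a single library of the whole series' liver groups, nude pool library 20, at 279 CPM. Nude captures and spheroid captures overlapped in this sum, since the lowest nude captures lay within the range of the spheroids, whose sum is mostly Rbp4.

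**Figure D1:**
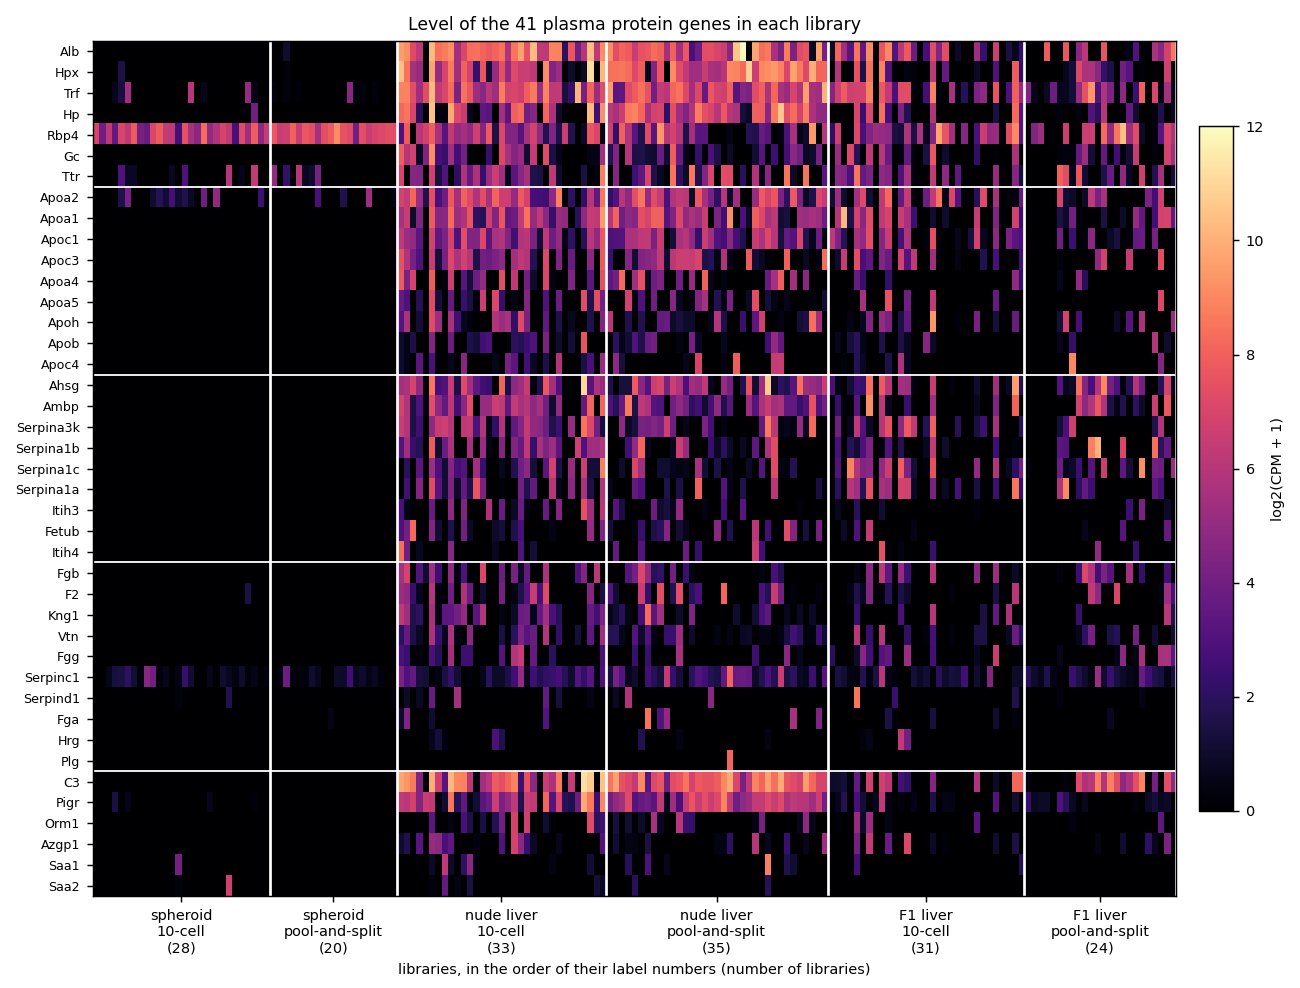
Heat map of the 41 members (one line per gene, ordered by role) in each library of the 6 KP1 groups, in the order of the label numbers; colour gives log2(CPM + 1). Spheroid columns are filled for Rbp4 and in scattered cells for a few other members, nude liver columns are filled in most lines, and F1 liver columns are filled in part.

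Among the carriers, albumin led. Alb had counts in 32 of 33 nude captures, from 0 to 1336 CPM (median 274, mean 369 ± 367 SD). Trf was the member found in all 33 nude captures, from 1.49 to 1204 CPM (median 129), and Rbp4 was in 31 at a median of 29.1 CPM (highest 244), below its median in spheroids. The haem and haemoglobin scavengers were more uneven: Hpx, haemopexin, had a median of 46.3 CPM but reached 2318 CPM in library 33, and Hp, haptoglobin, had a median of 9.53 CPM and reached 1423 CPM in library 7. Gc, the vitamin D carrier, and Ttr were each in 25 captures with medians of 3.89 and 3.88 CPM, and maxima of 570 and 442 CPM. For Hpx and Hp the mean (260 and 189 CPM) was thus carried by a minority of captures, whereas Alb and Trf were high in most.

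Per kilobase of merged exons, which allows genes to be set side by side, the order of mean levels in nude captures was Apoa2 (197 CPM per kb), Hpx (173), Alb (158), Hp (118), C3 (75.4), Apoa1 (72.4), Trf (68.6), Apoc1 (59.5) and Ahsg (52.7). Apoa1 and Apoa2, the main proteins of HDL particles, were both in 31 captures, with medians of 33.7 CPM (highest 715) and 53.9 CPM (highest 463). Apoc1, which inhibits lipoprotein uptake, was in 31 (median 21.8, highest 213 CPM) and Apoc3, which slows triglyceride clearance, in 26 (median 17.3, highest 221 CPM). Apoa4, Apoa5, Apoh and Apob were in 17 to 20 captures with medians of 0.436 to 1.68 CPM. Apob, the large structural protein of VLDL, rested on library 32, which gave 68.4% of its summed CPM.

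Protease inhibitors and fetuins differed widely in level. Serpina3k, a kallikrein-binding serpin, was in 29 captures (median 22.9, highest 356 CPM), and Ambp, the precursor of alpha-1-microglobulin and bikunin, was in 28 (median 28.0, highest 278 CPM). Ahsg, fetuin A, was in 28 at a median of 27.2 CPM, but library 32 held 2086 CPM against 393 CPM in the next library and gave 54.6% of its summed level. Of the alpha-1-antitrypsin copies, Serpina1b was in 27 captures (median 11.7, highest 230 CPM), Serpina1c in 23 and Serpina1a in 21. Fetub, Itih3 and Itih4 had medians of 0.

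The clotting factors varied in how widely they were found. Kng1, kininogen, was in 24 captures (median 5.19, highest 74.6 CPM) and Vtn, vitronectin, in 21 (median 1.39, highest 57.8 CPM), while F2, prothrombin, was in 19 and Fgb, the fibrinogen beta chain, in 18 (highest 131 CPM). Fgg was in 14 captures but Fga, the alpha chain, in 4, and Hrg, Serpind1 and Plg were in 5, 7 and 0. Serpinc1 was in 30 captures at a median of 2.10 CPM (highest 31.8). The 3 fibrinogen chains, which are assembled into 1 protein, were thus not detected alike.

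Of the acute phase and transport members, C3, the central complement component, had the largest mean of all in CPM (388 ± 560 SD; median 105, highest 2362 CPM, 30 of 33 captures). Pigr, the receptor that carries polymeric immunoglobulin across epithelia, was in 32 captures at a median of 21.1 CPM (highest 913). Saa1, Saa2 and Orm1, inducible acute phase proteins, were in 8, 6 and 15 captures with medians of 0.

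Against spheroid captures, the filter on low counts left 12 of the 41 members for testing, and edgeR's quasi-likelihood test with Benjamini-Hochberg adjustment called 11 of them higher in nude captures; 17.7% of all 7834 genes tested were called higher and 16.3% lower. The filter asks for enough counts in a number of libraries, of either group, that is set by the size of the smaller group. Each of the 11 had a median of 0 in spheroid captures. They passed only through liver and had to come out higher, so the count supports nothing about the family or the other 29, and the folds are given as description. The fitted log2 fold changes were 13.33 ± 0.78 (SE) for Alb, 13.50 ± 1.32 for C3 and 11.61 ± 1.00 for Hpx. Ahsg, Apoa1, Ambp, Apoc1, Serpina3k and Pigr lay between 9.80 and 11.71. Apoa2 and Trf, which spheroids held in part of the captures, had smaller estimates, 5.16 ± 0.80 and 5.58 ± 0.90. Rbp4, which passed the filter through both groups, was not called, at -0.71 ± 0.47 (adjusted p = 0.251). By limma-voom Rbp4 was called lower (-1.46, adjusted p = 0.0134), beside 2109 of 7834 genes lower and 1757 higher.

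Fitted folds of genes without a spheroid count depend on the prior count of the fit, so a bound was computed from summed counts as well, taking 3 counts over all spheroid captures as the floor. For the 28 members at 0 in spheroid captures with counts in nude captures, the bound had a median of 934-fold. Alb was at least 16186-fold higher, C3 at least 13666-fold and Apoa1 at least 4044-fold. These bounds cover counting error only. Where spheroids had counts, summed CPM gave 45.1-fold for Trf and 0.743-fold for Rbp4.

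A few captures carried many of the highest values. Nude capture library 7 held the highest level of 7 members (38 members found, 9240 CPM in sum), library 32 of 7 (22 members, 6562 CPM), library 35 of 6 (33 members, 7697 CPM) and library 33 of 3 (31 members, 8384 CPM). Library 32 thus reached a high sum with fewer members, led by C3, Ahsg and Pigr. In 9 of the 40 members found in nude captures, at least 50% of the summed CPM came from 1 library: Apob, Fga, Serpind1, Ahsg, Fetub, Itih4, Hrg, Saa1 and Saa2.

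Nude liver pools held all 41 members between them, with fewer members per library than the fullest captures. The 35 libraries held 11 to 31 members (median 23) and 480 to 5063 CPM in sum (median 2112 CPM). Hpx was higher in the middle of the group than in captures (34 of 35 libraries, 0 to 1762 CPM, median 279), as were Hp (35 of 35, 0.847 to 1571 CPM, median 114), C3 (35 of 35, 8.44 to 923 CPM, median 195) and Pigr (35 of 35, 0.576 to 486 CPM, median 63.5). Alb was in 34 libraries at a median of 169 CPM, with 3819 CPM in library 22 against 1486 CPM in the next. Trf was in 35 of 35 (8.39 to 1081 CPM, median 119). C3, Hp and Pigr were thus found in every pool, over wide ranges, whereas some captures lacked them.

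Against spheroid pools, 14 of the 41 members were tested and 13 were called higher by edgeR, with 16.5% of all 8010 genes called higher and 9.13% lower (1323 and 731 genes, against 1168 and 995 with RLE scaling). C3, Hp, Pigr, Apoa1, Apoc1, Ambp and Ahsg had no count in any spheroid pool, Alb and Hpx were in 1 of the 20, Apoa2 in 4, Ttr in 6 and Trf in 7, and Serpinc1 had a median of 0.365 CPM there. All 13 passed the filter only through nude liver, so their direction was fixed by it and the folds are description. Log2 fold changes were 13.14 ± 0.74 for C3, 12.98 ± 0.81 for Hpx, 12.48 ± 0.94 for Hp, 12.18 ± 0.99 for Alb and 11.27 ± 0.85 for Pigr. Apoa1, Apoc1, Ambp and Ahsg lay between 9.98 and 11.63. Trf (7.21 ± 0.97), Apoa2 (5.09 ± 1.05), Serpinc1 (4.03 ± 0.92) and Ttr (3.86 ± 1.24) had smaller folds, and spheroid pools held counts of all 4. Rbp4 again did not pass (-1.16 ± 0.71, adjusted p = 0.245), and limma-voom called it lower (-4.10). Over all genes limma-voom called 3492 of 8010 lower and 1286 higher here.

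F1 liver captures held the same family at lower levels and in fewer libraries. The 31 libraries held 0 to 34 members (median 13): 13 held at least 20, 3 at least 30, and 10 fewer than 10. The summed level was 0 to 3502 CPM (median 399 CPM, or 0.0399% of gene counts). F1 captures therefore overlapped both with spheroids at the low end and with nude captures at the high end.

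Member by member, Alb was in 24 of 31 F1 captures, from 0 to 542 CPM with a median of 8.56 CPM. Trf was in 26 (median 26.7, highest 485 CPM), Rbp4 in 27 (median 23.9, highest 836 CPM), Apoa2 in 23 (median 2.51, highest 356 CPM) and Apoc1 in 21 (median 2.74, highest 174 CPM). Apoa1 was in 17 at a median of 1.06 CPM, and library 4 alone, at 1238 CPM, gave 56.9% of its sum. The scavengers and complement were missing from many captures: Hpx was in 15, Hp in 11, C3 in 17 and Pigr in 15, each with a median of at most 0.218 CPM. Pigr reached 81.8 CPM in library 11 but at most 7.83 CPM elsewhere. Serpina1a and Serpina1c were in 17 captures each, with maxima of 384 and 487 CPM, above their maxima in nude captures of 192 and 446 CPM, while Serpina1b was in 13 with a maximum of 82.1 CPM.

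F1 liver pools were lower still for several members. The 24 libraries held 2 to 22 members (median 15.5) and 14.0 to 1946 CPM in sum (median 667 CPM). Rbp4 (16 libraries, median 24.9, highest 1354 CPM) and C3 (16 libraries, median 27.7, highest 489 CPM) had the highest medians, followed by Trf (21 libraries, median 5.98, highest 652 CPM) and Ahsg (17 libraries, median 2.53, highest 502 CPM). Alb was in 13 libraries (median 0.249, highest 385 CPM), Hpx in 12, Hp in 11, Apoc1 in 10 and Pigr in 13 at up to 6.78 CPM. Serpina1b was in 8 libraries but reached 1053 CPM in library 12 and 438 CPM in the next. Several members followed the label numbers. For C3, pool libraries numbered 1 to 8 held at most 0.332 CPM (2 of 8 with counts), the 11 numbered 9 to 20 all held it (27.9 to 489 CPM, median 151), and the 5 numbered 21 to 25 held 0 to 171 CPM. In the same runs of numbers Ambp was in 0 of 8, 10 of 11 and 2 of 5 libraries, Ahsg in 3, 11 and 3 and Hpx in 2, 9 and 1, and Trf reached 22.2, 652 and 131 CPM. Alb had medians of 0, 0.225 and 50.8 CPM and was in 3 of 8, 6 of 11 and 4 of 5. Others ran the other way: Pigr was in 7 of 8, 2 of 11 and 4 of 5, and Serpina3k in 3, 0 and 2. The labels do not say what the numbers stand for.

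**Figure D2:**
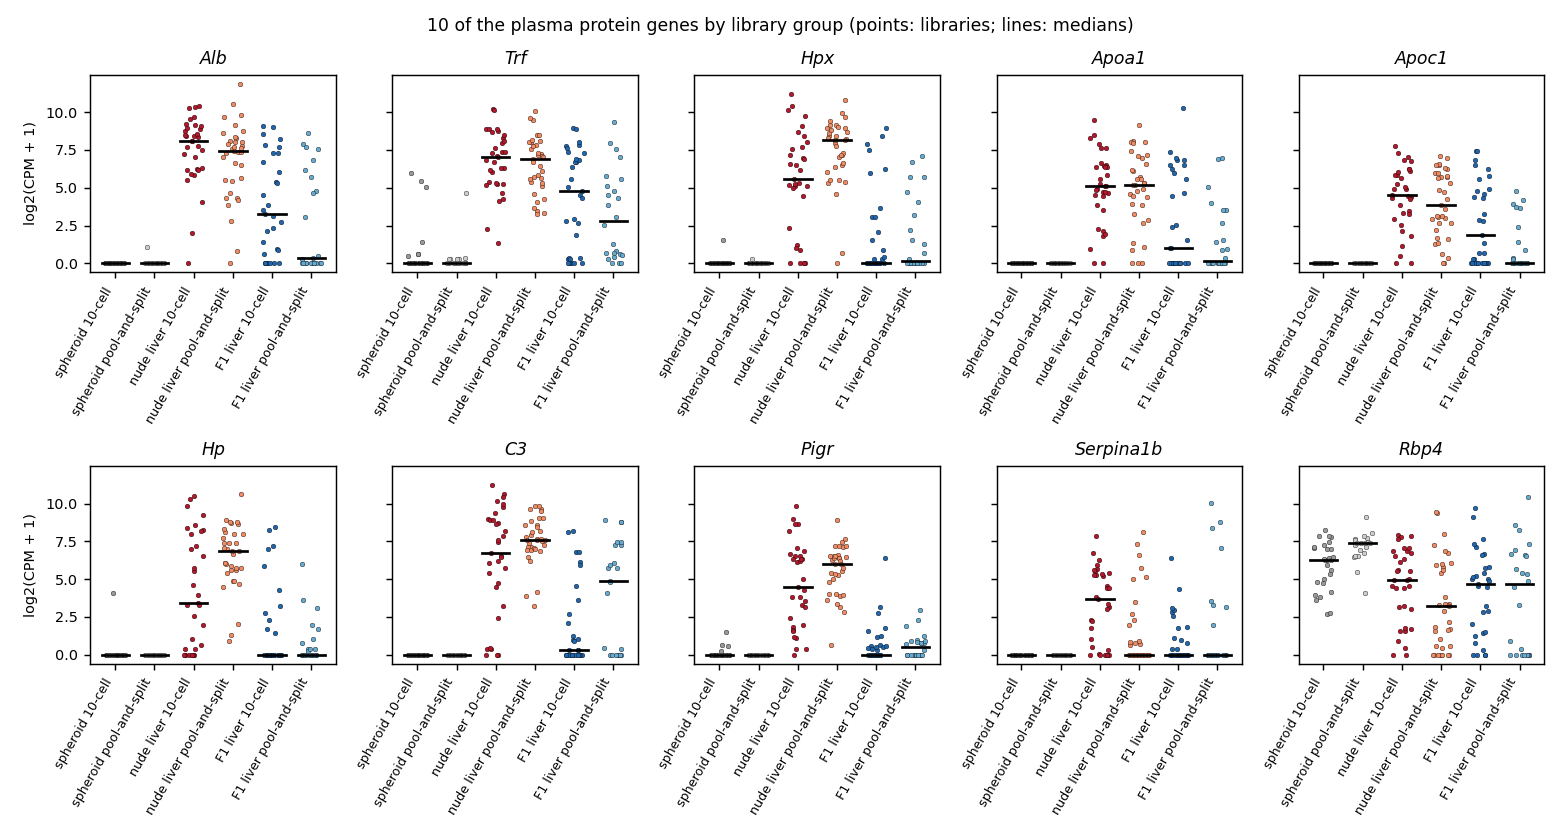
Levels of 10 members as log2(CPM + 1) in each library (points) of the spheroid, nude liver and F1 liver groups, with group medians as lines. Rbp4 is present in every group, the other members have spheroid medians at or near 0, and Hpx, Hp, C3 and Pigr have medians near 0 in F1 captures.

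Because few members had counts in enough F1 libraries, the same filter left few to test against spheroids. In captures 2 members were tested. Trf was called higher by edgeR, with an estimate of 4.59 ± 1.01, and Rbp4 was not (0.01 ± 0.58, adjusted p = 0.995). Over all genes tested edgeR called 7.73% higher and 4.91% lower. By limma-voom Rbp4 was called lower (-2.11, adjusted p = 0.00933), beside 1329 of 7309 genes lower and 414 higher. Trf, at a median of 0 in spheroid captures, passed the filter through F1 liver alone, so its direction was fixed. The Trf call was lost when the F1 captures with under 200 CPM of Rpl19-ps11, a pseudogene whose level splits the F1 libraries, were used alone (3.96), and against the spheroids with at least 0.1% ERCC counts (4.01). With a filter on mean level instead (at least 5 CPM), 18 of 20 members tested and 892 of 8579 genes were called higher, but members that reach this mean through F1 liver could only come out higher. In pools Rbp4 was the only member tested (0.18 ± 0.82, adjusted p = 0.918), so that edgeR called 0 members, with 0 at an unadjusted p under 0.05, with 8.94% of all genes called higher and 2.65% lower. Rbp4 turned direction with other tools, and limma-voom called it lower (-3.57, adjusted p = 0.00054), beside 2946 of 7249 genes lower and 393 higher. With the filter on mean level, 16 of 19 members and 1039 of 8994 genes were called higher, under the same limit. Bounds from summed counts had a median of 336-fold over the 28 members with F1 capture counts and none in spheroid captures, with Alb at least 3966-fold higher, and a median of 223-fold over 28 members in pools. Trf was 19.5-fold higher and Rbp4 0.848-fold in summed F1 capture CPM.

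Setting the hosts against each other, 4 of the 19 members tested were lower in F1 than in nude captures by edgeR's test, and none was higher; 7.98% of all 7064 genes tested were called lower and 11.2% higher. Pigr was lower by the most, with a log2 fold change of -5.01 ± 0.88 (adjusted p = 1.49e-05), followed by C3 (-3.53 ± 0.92, adjusted p = 0.00391), Serpina1b (-2.30 ± 0.84, adjusted p = 0.0423) and Alb (-1.80 ± 0.63, adjusted p = 0.0341). All of these overlapped between the hosts, since each had F1 captures above the lowest nude captures. Hpx and Hp had similar sizes with wider errors and did not pass (-2.37 ± 0.94, adjusted p = 0.0652, and -2.38 ± 1.00, adjusted p = 0.0825), and DESeq2 called Hpx (-2.44, adjusted p = 0.0385). Hp, Hpx, C3, Serpina1b and Pigr had F1 capture medians of at most 0.218 CPM. They passed the filter mainly through nude liver, where they were found widely. That favoured their direction, so their folds are given as description. The number and signs of the members tested support nothing about the family. Serpina1a, Serpina1c, Rbp4 and Apoa1 had estimates from 0.32 to 1.07 and did not pass; by limma-voom all 4 had negative estimates, and Apoa1 was called lower (-3.06, adjusted p = 0.00578).

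These calls depended in part on the libraries used, and the limit of the filter holds in each set below. Without nude library 32, which held the highest level of both, Pigr (-4.60, adjusted p = 5.73e-05) and C3 (-3.26, adjusted p = 0.0066) were still called. Alb without nude library 33 gave -1.65 (adjusted p = 0.0552), and Serpina1b gave -2.03 without nude library 7 (adjusted p = 0.0729) and -1.97 without libraries of at least 10% ERCC counts (adjusted p = 0.0916). Within the 26 F1 captures with at least 120 CPM of Rpl19-ps11, C3 and Pigr were still called, whereas Alb (-1.54) and Serpina1b (-2.01) were not; the other set holds 5 captures, and no member was called there.

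In pools, 5 of 15 members tested were lower in F1 than in nude liver by edgeR's test and none was higher, with 3.79% of all 6010 genes called lower and 8.2% higher. These were Pigr (-5.89 ± 0.79, adjusted p = 1.87e-07), Hp (-5.65 ± 0.89, adjusted p = 5.24e-06), Hpx (-4.25 ± 0.85, adjusted p = 0.000303), Apoc1 (-2.92 ± 0.83, adjusted p = 0.0144) and Serpinc1 (-2.06 ± 0.70, adjusted p = 0.0415). For Pigr and Hp the medians were 63.5 and 114 CPM in nude pools against 0.421 and 0 CPM in F1 pools, though the ranges still met at their ends. Serpinc1 rested on nude pool library 20, which held 267 CPM; without it the estimate was -1.17 (adjusted p = 0.190). Apoc1 was not called without libraries of at least 10% ERCC counts (-3.06, adjusted p = 0.124). Alb (-2.30 ± 0.85, adjusted p = 0.0642), Apoa1 (-2.36 ± 0.87, adjusted p = 0.0629) and C3 (-1.43 ± 0.67, adjusted p = 0.148) did not pass, while DESeq2 called Alb (adjusted p = 0.0230) and Apoa1 (adjusted p = 0.0149) lower. The same limit of the filter holds here. Pigr, Hp, Hpx and Apoc1 had F1 pool medians of at most 0.421 CPM and passed mainly through nude liver. That favoured their direction, so their folds are given as description.

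Few markers of other cell types passed the filter for a test between the hosts. Median summed levels of 9 liver endothelium markers were 30.2 CPM in nude captures and 3.48 CPM in F1 captures, and 15.9 and 5.39 CPM in the pools. Of 2 endothelial genes tested in captures, Pecam1 was called lower in F1 (-3.14 ± 0.55, edgeR, adjusted p = 1.17e-05). Against spheroids the filter kept Pecam1 in nude captures but no endothelial gene in F1 captures. Pecam1 thus passed through nude liver, which favoured its direction, and its fold is given as description. In pools the 1 endothelial gene tested was not called (-0.17). The 7 erythrocyte markers had medians of 551 CPM in nude and 1622 CPM in F1 captures, but 1259 CPM in nude and 334 CPM in F1 pools. All 4 erythrocyte genes tested were called higher in F1 captures (Hbb-bs by 3.29 ± 0.73). Against spheroids the filter kept Hbb-bt, 1 of these 4, in F1 but not in nude captures. Hbb-bt thus passed through F1 liver, which favoured its direction. In pools 4 erythrocyte genes were tested, of which Hbb-bt was called higher in F1 (3.72 ± 1.04) and none lower, with a median of 1.45. The 24 hepatocyte enzymes had medians of 107 CPM in nude and 74.7 CPM in F1 captures, and 75.9 and 20.0 CPM in the pools; 0 of 2 tested were called in captures (median difference 0.22) and 0 of 2 in pools (-0.85). Of the hepatic stellate cell markers 0 of 2 tested were called in captures and 0 of 2 in pools, and of the Kupffer cell and macrophage markers, with medians of 21.5 CPM in nude and 39.3 CPM in F1 captures, 0 of 2 in captures. Of 2 genes tested from a list of 6 cholangiocyte markers, Epcam was called higher in F1 captures (3.56 ± 0.73). The filter may have favoured this direction. The list had median sums of 34.7 CPM in nude and 67.2 CPM in F1 captures. Tumour spheroids also held these markers, at 56.6 CPM in captures and 129 CPM in pools. In liver pools 0 of 2 tested cholangiocyte markers were called. The 12 neuroendocrine markers had medians of 2152 CPM in nude and 2953 CPM in F1 captures, and 2008 and 3164 CPM in the pools. Of these, 2 of 10 tested were called higher in F1 captures (Ddc and Uchl1) and 3 of 9 in F1 pools (Ddc, Chgb and Uchl1), and none was called lower. The part of these levels, or of the higher ERCC share of F1 pools, in the lower plasma protein levels of F1 liver was not tested.

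Captures and pools of the same host group were set against each other to see whether 10-cell captures differ from pool-and-split libraries in level or in spread. In nude liver 1 of 19 members tested differed in mean level: Serpinc1 was lower in captures (-2.25 ± 0.60, edgeR, adjusted p = 0.0378), with 0.921% of all genes called lower and 0.333% higher, and without pool library 20 it was at -1.36 (adjusted p = 0.188); DESeq2 did not call it either (-1.29, adjusted p = 0.127). In F1 liver edgeR called 0 of 11 members tested, 2 had an unadjusted p under 0.05 and DESeq2 called 1. Over all genes edgeR called 1.69% higher and 5.53% lower in captures (109 and 356 of 6439). The split turned with limma-voom, at 417 higher and 116 lower. Apoc1 had an estimate of 2.94 ± 1.03 (adjusted p = 0.0672). The difference between the hosts in this contrast was tested for 30 members, and edgeR called 1, Serpina1b, lower in F1 (-4.47 ± 1.42, adjusted p = 0.0434; 3.21% of all genes were called lower and 2.07% higher, or 304 and 196 genes, against 486 and 189 with RLE scaling). It was not called without F1 pool library 12 (-3.68, adjusted p = 0.102), without nude capture library 7 (-4.16, adjusted p = 0.0633), without libraries of at least 10% ERCC counts (-2.62, adjusted p = 0.378) or by limma-voom (-3.67, adjusted p = 0.504).

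Spread differed between nude captures and pools for some members. Each library's distance from its group's median, on the log2(CPM + 1) scale, was compared with limma across all genes averaging 5 CPM or more. Of the 41 members 36 were tested in nude liver and 3 were called more spread in captures, with 0.564% of all genes called more spread and 0.213% less spread there. C3 went from a mean deviation of 1.10 in pools to 2.90 in captures (difference 1.80 ± 0.40, adjusted p = 0.0153), Hp from 1.62 to 3.32 (1.70 ± 0.40, adjusted p = 0.0240) and Pigr from 1.29 to 2.46 (1.17 ± 0.31, adjusted p = 0.0492). On the log2(CPM + 10) scale only C3 was called (1.19, adjusted p = 0.0492), and Hp (0.73, adjusted p = 0.439) and Pigr (0.65, adjusted p = 0.258) were not. Pigr was also lost with TMM library sizes (adjusted p = 0.114), with genes averaging 20 CPM or more (adjusted p = 0.0643) and without libraries of at least 10% ERCC counts (adjusted p = 0.0575). Alb did not pass this test (1.85 in pools, 1.63 in captures). In F1 liver limma called 0 of 25 members tested, with 3 at an unadjusted p under 0.05, and 0.537% of all genes were called more spread and 0.948% less spread in captures. C3 there had the opposite sign (3.17 in pools, 1.93 in captures; adjusted p = 0.270).

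Whether members rise together was first read against Alb, as Spearman's rho of CPM across the libraries of a group with permutation p-values adjusted over all 72 relations of the 4 liver groups. In nude captures 26 of 27 members had a positive rho and 13 passed. Hpx was the closest (rho = 0.66, permutation p = 9e-05, adjusted p = 0.0013), followed by Ambp (0.64, permutation p = 0.00012, adjusted p = 0.00144), Hp (0.60, permutation p = 0.00034, adjusted p = 0.00259), Vtn (0.57, permutation p = 0.00071, adjusted p = 0.00438) and Apoc1 (0.53, permutation p = 0.00194, adjusted p = 0.00931). Apoc3, Apoa4, F2, Apoa2, Serpina3k, Serpina1a, Apoa1 and Kng1 had rho from 0.42 to 0.51. Trf just missed (0.41, adjusted permutation p = 0.0510), Pigr was at 0.15 and Fgb at -0.01. Over all 9748 genes with counts in as large a share of these captures, members included, 63.5% had a positive coefficient with Alb and 166 genes (1.7%) reached 0.42, the lowest value among the 13.

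Pearson's r on log2(CPM + 1) over the 33 nude captures was 0.67 for Hpx, 0.64 for Ambp, 0.50 for Hp, 0.48 for Vtn and 0.69 for Apoc1. The 2 captures farthest from the median of Alb were libraries 5 and 28, with 0 and 2.97 CPM. Without them Pearson's r was 0.62 for Hpx, 0.57 for Ambp, 0.45 for Hp, 0.48 for Vtn and 0.54 for Apoc1, and 4 members passed the permutation test by each measure: Hpx, Ambp and Vtn by both, Hp by Spearman's rho only and Apoc1 by Pearson's r only. The other 8 relations were called by neither measure without those 2 libraries. Their coefficients stayed positive, and Pearson's r went from 0.54 to 0.44 for Apoc3, from 0.60 to 0.46 for Apoa2, from 0.41 to 0.37 for Apoa4 and from 0.41 to 0.38 for F2. Alb itself had rho of -0.36 with the ERCC share and 0.18 with the gene total over these libraries; the part of either in the relations was not tested.

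In F1 captures 10 of 12 members passed. Of all 8881 genes found as widely, 66.2% had a positive coefficient with Alb there and 34 (0.383%) reached 0.56, the lowest value among the 10. Apoa1 (rho = 0.76, permutation p = 1e-05, the smallest these permutations can give, adjusted p = 0.00072) and Ttr (0.75, permutation p = 2e-05, adjusted p = 0.00072) were the closest, with Pearson's r of 0.69 and 0.76. Serpina3k (0.68), Serpina1c (0.67), Serpina1a (0.64), Apoc1 (0.64), Trf (0.61), C3 (0.59), Ahsg (0.57) and Apoa2 (0.56) followed. Without the 2 captures farthest from the median of Alb, r was 0.64 for Apoa1 and 0.76 for Ttr, all 10 still passed with Spearman's rho, and 7 passed with Pearson's r; C3 fell to 0.30 (adjusted permutation p = 0.231), so its linear relation rests on those captures. The 2 members that did not pass were Rbp4 (0.18) and Serpinc1 (-0.12), which are also the members found in most spheroid captures. Within the 26 captures with at least 120 CPM of Rpl19-ps11, 10 members passed, and the other set of 5 is too small for a value. Alb had rho of -0.22 with the ERCC share and 0.26 with the gene total.

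**Figure D3:**
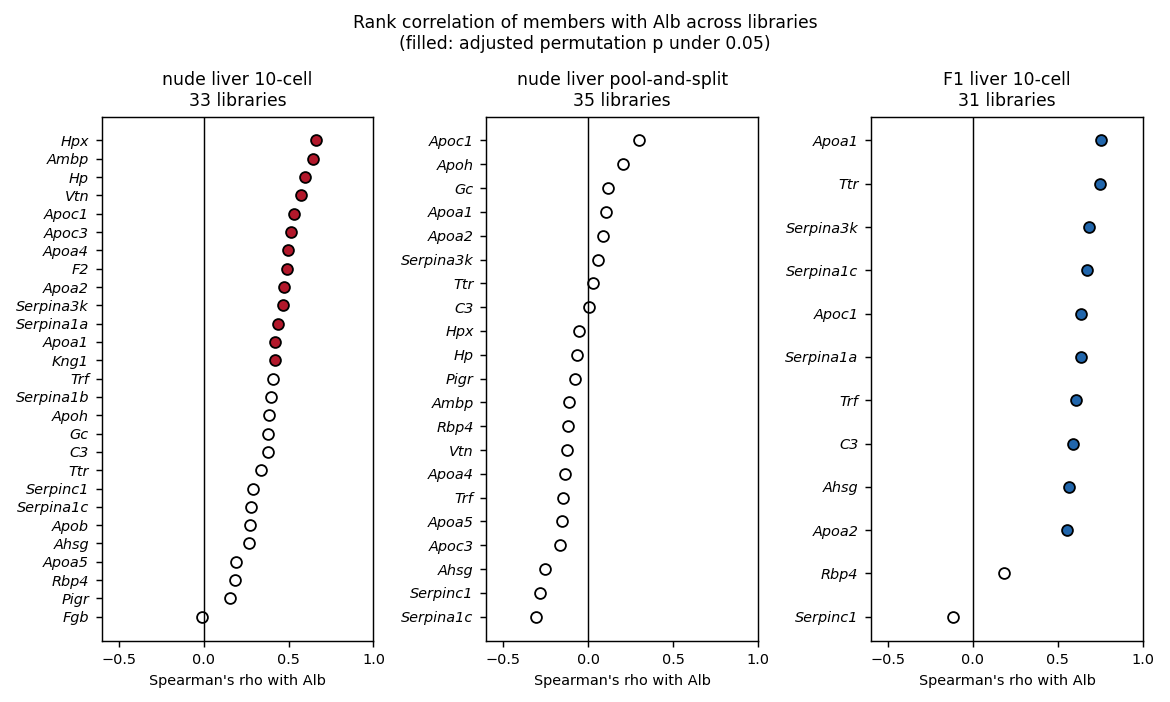
Spearman's rho with Alb (horizontal axis) for each member tested in nude captures, nude pools and F1 captures; filled points passed an adjusted permutation p of 0.05. Filled points number 13 in nude captures, 0 in nude pools and 10 in F1 captures.

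In the pools few relations to Alb passed. In nude pools 0 of 21 relations passed the permutation test, rho lay between -0.31 and 0.30, and 8 of 21 were positive. In F1 pools 1 of 12 passed, that of Gc, but Alb there left a gap between 14 libraries at or below 0.422 CPM and 10 at or above 7.22 CPM, so no coefficient is given; 11 of the 12 were positive in sign. In nude pools Alb had rho of -0.08 with the ERCC share. The difference between captures and pools in these coefficients was itself not tested.

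**Figure D4:**
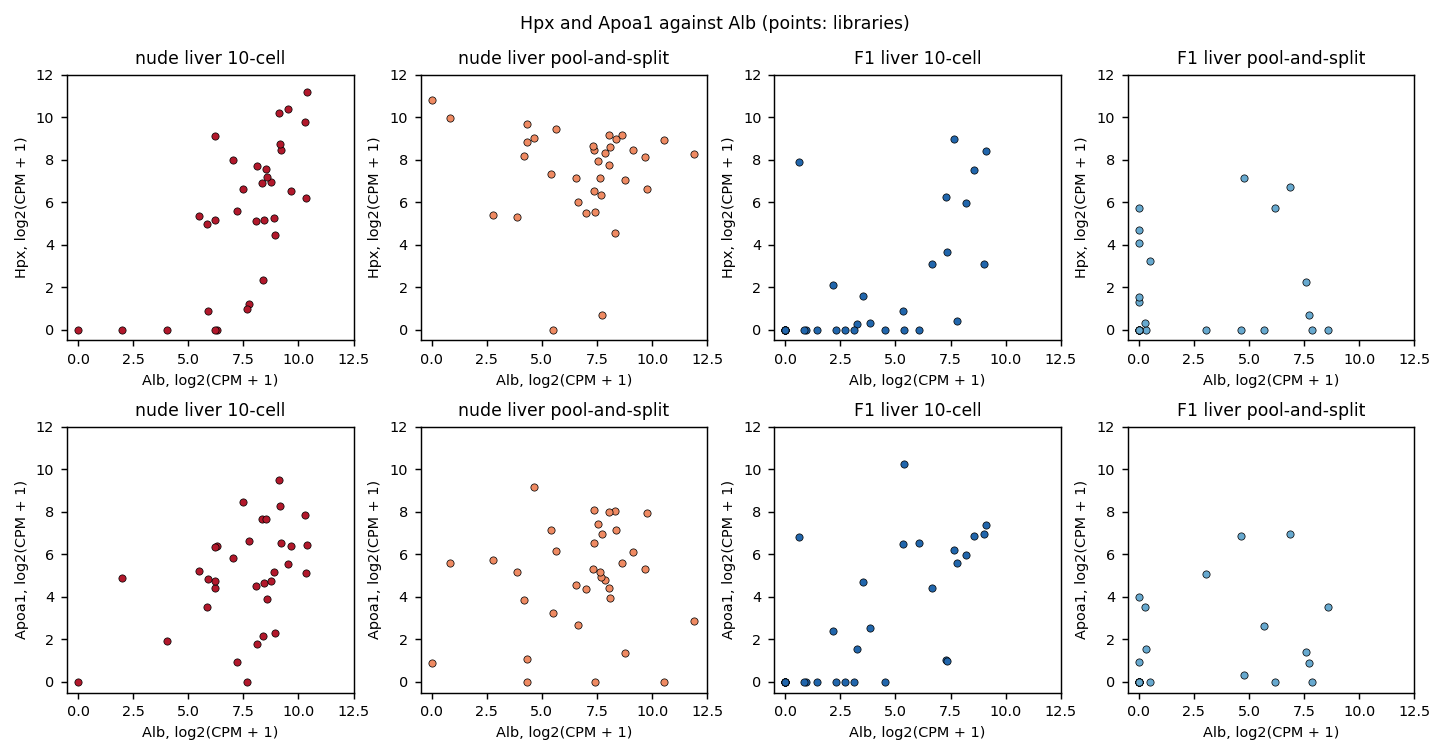
Hpx and Apoa1 against Alb, all as log2(CPM + 1), with 1 point per library in the 4 liver groups. The rank correlation with Alb in captures was 0.66 for Hpx and 0.42 for Apoa1 in nude liver and 0.76 for Apoa1 in F1 liver, and was not computed for Hpx in F1 captures, where many points lie at 0.

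Over all pairs of members with enough counts, given as description because pairs share libraries and depth, coefficients were higher in captures than in pools. The median rho was 0.33 over 378 pairs of 28 members in nude captures, with 93.7% of pairs positive and 86 above 0.5. It was 0.05 over 231 pairs in nude pools (59.7% positive, 1 above 0.5), 0.58 over 78 pairs in F1 captures (84.6% positive, 47 above 0.5) and 0.15 over 78 pairs in F1 pools (78.2% positive, 14 above 0.5). Restricted to the 9 members used in all 4 groups (36 pairs), the medians were 0.24, 0.02, 0.62 and 0.18 in the same order. Over all pairs of genes found as widely in each group, the medians were 0.08, 0.03, 0.06 and 0.08, and 62.7%, 55.3%, 62.5% and 63.7% of pairs were positive.

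Ranking all genes that averaged 10 CPM or more and had counts in most libraries by rho with Alb places the members among other genes. In nude captures Hpx, Ambp and Hp were ranks 1, 2 and 3 of 6950 genes, and 4 of the first 20 and 7 of the first 50 were members. The closest genes that are no members were Leprot (0.58), Mug1 (0.57), Nedd4l, Cfb, Cd44, Aldh1a1, Fxr1, Surf4, Sec23ip and Gstm1 (0.54), of which Mug1, a murinoglobulin, and Cfb, complement factor B, also encode plasma proteins. In F1 captures Apoa1 and Ttr were ranks 1 and 2 of 6268 genes, with 7 members in the first 20 and 10 in the first 50. Of the next genes, Mup3 (0.71), Mup14, Mup1, Mup16, Mup7 and Mup11 encode major urinary proteins, which hepatocytes also secrete and whose near-identical copies share reads, and Clu (0.66) encodes clusterin; CR550303.1, CU041251.1 and 9530077C05Rik were the others. These ranks are over 33 and 31 libraries and say nothing of shared control.

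Other genes of hepatocytes, from lists chosen as background, gave the following counts. Of 64 other plasma protein genes, 63 were matched and few passed the filter: Apoe, a lipoprotein ligand that many cell types make, was called higher than in spheroids in nude captures (4.93 ± 0.72), nude pools (6.42), F1 captures (4.31 ± 0.84) and F1 pools (4.69 ± 1.10), and in nude pools Agt, angiotensinogen (6.02), and C4b, complement C4 (9.62), were called as well. Agt was in 1 of 20 spheroid pools and C4b in 0, and Apoe had spheroid medians of 0.329 and 0.113 CPM, so all passed the filter through liver alone and their direction was fixed. Between the hosts, Agt was in 26 of 35 nude pools and 9 of 24 F1 pools and passed the filter through nude liver, which favoured its direction; the fold is given as description (-4.12 ± 0.90). Summed, these 63 genes had medians of 39.8 CPM in spheroid captures, 357 CPM in nude captures and 191 CPM in F1 captures. Of 24 hepatocyte enzymes, 16 had no count in spheroid captures, 0 were without counts in nude captures and 1, Cyp7a1, the rate-limiting enzyme of bile acid synthesis, was without counts in F1 captures; 2 passed the filter in nude captures, and Gnmt, a glycine methyltransferase found in 8 of 28 spheroid captures, was called higher (4.36 ± 0.82) under the same limit. Of 21 liver transcription factors, 7 were tested in nude captures: Onecut2 was higher (1.65), and Foxa1 (-1.40), Foxa2 (-1.56) and Prox1 (-1.43), which the spheroids also express, were lower than in spheroid captures. The summed level of these factors had medians of 262 CPM in both spheroid and nude captures, whereas that of the plasma protein genes was 87.8 and 1596 CPM.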

How the data were processed

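RNA-seq libraries were made from laser-captured groups of 10 cells by poly(A) PCR amplification and tagmentation (Nextera XT), and bulk libraries with NEBNext Ultra, per the labels' protocols. The authors deposited expected counts per gene, which need not be whole, in 1 table of 199 libraries. The submitters' processing notes name RSEM, Bowtie2, GRCm38 and GRCh38.p12, without roles; the annotation release and the counting strand are not given in the sources used here. Rows of the 92 ERCC transcripts were left out, and CPM were computed over the remaining 31581 genes.

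Counts were rounded to whole numbers and tested with edgeR 4.0.16 (R 4.3.3; filterByExpr, TMM, robust quasi-likelihood test) over all genes that passed the filter, with Benjamini-Hochberg adjustment and a threshold of 0.05, each fit holding the 2 groups compared (4 for the difference between hosts). Spread was tested with limma 3.58.1. Correlations used 100000 permutations of one value per library (scipy 1.17.1, numpy 2.4.6) and covered members with counts in at least 50% of the libraries of a group. The count, spread and permutation tests were tested on simulated data, with 200 changed genes for the count test. Alternatives were DESeq2 1.42.0, limma-voom, RLE scaling, other filters, a replicate block, subsets by ERCC share or Rpl19-ps11 level, and leaving out libraries; the split at 120 CPM of Rpl19-ps11, leaving out the highest library and Pearson's r without 2 libraries were chosen after seeing the data. Gene counts per library set a value of 1 count at 0.172 to 1.39 CPM, and floors cover counting error only.

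The genes named are the 41 members, called genes of the background lists, and the 10 other genes closest to Alb in each capture group. The members and all lists were chosen with earlier results of these data known. The same label number in different groups was checked and did not pair libraries. Figures were drawn with matplotlib 3.10.9.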

Additional observations from a re-analysis of the deposited data

Results flagged for a closer look

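Serpina1b, 1 of the alpha-1-antitrypsin copies, was singled out by a test of the difference between hosts: the capture minus pool contrast was -4.47 on the log2 scale (SE 1.42) between F1 and nude liver (edgeR, adjusted p = 0.0434). Serpina1b was in 27 of 33 nude captures and 15 of 35 nude pools, but in 13 of 31 F1 captures and 8 of 24 F1 pools, where library 12 held 1053 CPM. The call was lost without libraries of at least 10% ERCC counts (-2.62, adjusted p = 0.378), with limma-voom (-3.67, adjusted p = 0.504), without F1 pool library 12 (-3.68, adjusted p = 0.102) and without nude capture library 7 (-4.16, adjusted p = 0.0633). The copies Serpina1a (-0.75) and Serpina1c (-0.63) did not pass this test.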

How the results depend on the processing

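With the filter on low counts, the members called higher than in spheroids were 11 in nude captures, 13 in nude pools, 1 in F1 captures and 0 in F1 pools. With genes kept at a mean of 5 CPM these were 29, 29, 18 and 16, beside 1892 of 9146, 1776 of 9474, 892 of 8579 and 1039 of 8994 genes over all; with no filter 37, 40, 36 and 31 were called (1 lower in nude and 1 in F1 captures), beside 5420 of 20050, 5351 of 20053, 3201 of 19000 and 3154 of 18440 genes higher. Members added through liver alone could only come out higher. Between hosts at a mean of 5 CPM 11 members were lower in F1 pools (5 with the usual filter; 698 of 9264 genes lower, 1008 higher); with no filter 16 were lower (3484 of 19852 genes lower, 2373 higher), and in captures 11 were called, 9 lower (4 with the filter; 3674 of 19872 genes lower, 2620 higher). Between captures and pools at a mean of 5 CPM, 2 members were lower in nude captures (446 of 9397 genes lower, 254 higher) and 2 called in F1 liver, 1 each way (694 of 8759 lower, 344 higher). With no filter 4 (1 higher; 2201 of 20641 genes higher, 2378 lower) and 8 (5 higher; 2279 of 18719 higher, 2329 lower) were called, and 6 (4 higher) for the difference between hosts (1658 of 21540 higher, 1571 lower).

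limma-voom called 14 members between hosts in captures and 10 in pools, all lower in F1 (over all genes 1151 lower and 600 higher of 7064, and 598 and 224 of 6010). Against spheroids it called 2 in F1 captures, Trf higher and Rbp4 lower (414 genes higher, 1329 lower), and 1 in F1 pools, Rbp4 lower (393 and 2946), and it called 4 between nude captures and pools (1 higher; 299 and 104 genes) and 0 for the difference between hosts (0 and 1 genes). DESeq2 called 0 between nude captures and pools (102 genes each way) and 1, higher in captures, in F1 liver (261 and 504). RLE scaling shifted the all-gene median (log2) by over 0.1 in 4 comparisons, from 0.16 to -0.06 and from 0.46 to 0.32 in nude and F1 pools against spheroids, from -0.24 to -0.34 between F1 captures and pools, and from -0.04 to -0.23 for the difference between hosts. Without libraries of at least 10% ERCC counts, 9 were lower in F1 than in nude pools (339 of 8689 genes lower, 261 higher). In the same set 1 was higher in F1 pools than in spheroids (684 of 9368). There 0 were called between nude captures and pools (25 of 6321 genes higher, 66 lower). For the difference between hosts 4 were called, 3 higher (163 higher, 182 lower of 11819). Against spheroids with at least 0.1% ERCC counts, 29 were higher in nude captures (1152 of 9507 genes), 24 in nude pools (566 of 9498) and 12 in F1 captures (124 of 8897); against those under 0.1%, 3 in F1 captures (425 of 7861) and 3 in F1 pools (468 of 7729). Between hosts in captures, 2 were lower with F1 libraries of at least 120 CPM of Rpl19-ps11 (525 of 7174 genes lower, 771 higher). At 200 CPM or more 2 were lower (522 of 7342 genes lower, 775 higher). Under 200 CPM 2 were lower (112 of 10292 genes lower, 190 higher), and under 120 CPM 0 were (67 of 10754 lower, 156 higher). In pools 2 were lower under 120 CPM (47 of 9684 genes lower, 248 higher). Trf in F1 captures against spheroids gave 0 calls in the sets under 120 CPM, under 200 CPM and at least 120 CPM, in the last of which it was not tested.

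Spread measured from the group mean called 7 members in nude liver, all more spread in captures (214 genes more, 171 less of 9397), and 5 in F1 liver, 4 of them more spread (354 more, 740 less of 8759). With log2(CPM + 10) 1 was called in nude liver, more spread (4 genes more, 1 less of 9397). Without libraries of at least 10% ERCC counts 1 was called in F1 liver, more spread (2 genes more, 1 less of 8464). Relations with Alb in nude captures numbered 13, and 6 with Pearson's r of log2(CPM + 10), 4 without the 2 farthest libraries and 4 with Pearson's r without them. In F1 pools the 1 relation became 0 with the F1 libraries of at least 120 or 200 CPM of Rpl19-ps11, with Pearson's r of log2(CPM + 10), with thinned counts and without libraries of at least 10% ERCC counts, and 2 without the 2 farthest libraries. In nude pools 1 relation passed with thinned counts and 1 without libraries of at least 10% ERCC counts, both negative. The cause of these changes was not tested.

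With the replicate number as a block, 8 members were lower in F1 than in nude captures (4 without the block), while over all genes 550 were lower and 368 higher (564 and 794 without the block). Against spheroids 2 were called in F1 captures, Trf higher and Rbp4 lower (277 genes higher, 767 lower), and 0 between nude captures and pools (2 and 0 genes). The numbers share no more than a label: over 8 comparisons with 19 to 31 shared numbers, 0 to 3 pairs correlated above 0.1, and 0 to 2 libraries correlated best with their own number.

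Of all counts under an alternative, 59 moved by more than 1.5 times and 68 did not. For single members 437 alternatives kept direction and call, 45 lost the call, 23 gained it and 25 changed sign. All 25 were of members not called by edgeR. Rbp4 in F1 captures against spheroids went from 0.01 to -2.11 with limma-voom and -2.28 with the block, both called lower, and to -0.30 against spheroids with at least 0.1% ERCC counts and -0.079 and -0.048 with F1 libraries of at least 120 and 200 CPM of Rpl19-ps11. In F1 pools it went from 0.18 to -3.57 with limma-voom, called lower, and to -2.73 with the block, -1.08 with DESeq2, -0.10 with RLE scaling, -0.50 against spheroids with at least 0.1% ERCC counts, and -2.02 and -2.08 with F1 libraries under 120 and 200 CPM. Between hosts in captures, limma-voom gave -0.15 for Serpina1a, -0.22 for Serpina1c, -0.61 for Rbp4 and -3.06 for Apoa1, and the block gave -0.14 for Serpina1a, -0.60 for Rbp4 and -3.79 for Apoa1. DESeq2 gave -1.33 for Apoa1, and F1 libraries under 120 and 200 CPM gave -1.23 and -1.38 for Serpina1c and -1.69 and -1.85 for Apoa1. Apoc1 between F1 captures and pools went from 2.94 to -0.039 with F1 libraries under 200 CPM. Most clotting factors and acute phase members were found in too few libraries to pass the filter, and whether depth had a part in this was not tested.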
